A study of Drosophila melanogaster with 8 samples.

Results

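Spermatids of Drosophila fuse their mitochondria into a pair of giant derivatives that run along the sperm tail, and 8 genes of this process or of its somatic counterpart are described here: dj, djl, fzo, Marf, Cyt-c-d, Cyt-c-p, Pink1 and park. The set was named by gene function with earlier results of these data known, and its rows were then taken by symbol alone from the testis and the larval expression table, where all 8 were present. They are 8 of 15612 named genes in the testis table and 8 of 15735 in the larval table, or 8 of 17122 named genes in either.

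The study sequenced poly(A) RNA from adult testes and from second instar larvae of flies with and without a mutation in tgs1, the gene of the enzyme that trimethylates the cap of spliceosomal snRNAs, with 2 libraries per group and 8 in all. All stocks were kept at 25 °C. The wild-type testes had the genotype bam>tgs1;tgs1hypo: the hypomorphic alleles were present, and a tgs1 cDNA driven by bam in the germ line restored function. The tgs1hypo testes had the genotype bam>moi;tgs1hypo: the same hypomorphic background with a cDNA of moi, the other reading frame of the locus, which does not rescue. Both testis groups therefore carry the hypomorphic alleles and a germline transgene, and somatic cells of the wild-type testes are not rescued by the bam driver. The paper's own text names no transgene for the sequenced testes. It gives the mutant as the pair of hypomorphic alleles, and its wild type as a single stock except where noted. This difference was not resolved here. The study describes a meiotic arrest in the mutant testes, so a difference in germ cell stages and one in RNA per cell cannot be told apart between these groups. The wild-type larvae were of the line tgs1 2-4, which went through the same Cas9 procedure without a change in the reading frame, and the mutant larvae were of the line tgs1 2-3, a Cas9 frameshift. Mutant larvae die as second instars and start life with product from their mother. About 100 testes by the labels, or 100 pairs by the methods, and about 80 larvae went into each library. Nothing in the labels says that the libraries of a group came from separate crosses, so p-values measure the spread between libraries.

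During spermatogenesis the mitochondria of the early spermatid collect beside the nucleus, fuse and wrap into an onion-like body, the nebenkern, which then unfurls into the derivatives. Fuzzy onions, the mitofusin encoded by fzo, performs this fusion, and Pink1 and parkin, a mitochondrial kinase and a ubiquitin ligase, are needed for a normal nebenkern. Many genes that act in spermatids are transcribed earlier, in primary spermatocytes, and their mRNA is stored until it is translated. Don juan, the product of dj, is a sperm protein that lies along the derivatives, and the testis form of cytochrome c acts in the activation of caspases when spermatids individualize.

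The members differ in gene structure. Positions are those of the FlyBase release 6 assembly, and exons are those of the BDGP6.54 annotation. dj lies on 3R from 7059315 to 7060524 on the plus strand and ends 242 bases before djl, which runs from 7060767 to 7061919 on the same strand. Cyt-c-d lies on 2L from 16715891 to 16719635 and ends 296 bases before Cyt-c-p, at 16719932 to 16722644, also on the same strand. fzo lies on 3R from 23201644 to 23204034 on the minus strand, inside the gene cnc, and has 0 annotated introns. Marf, its somatic counterpart, lies on X from 6365949 to 6370924 and has 10 distinct introns of 69 to 561 bases. Pink1 lies on X from 6683798 to 6687302 with 9 distinct introns of 56 to 148 bases, and park on 3L from 21194754 to 21196853, minus strand, with 6 introns of 55 to 141 bases. These counts include alternative forms that share an end. The identifiers are FBgn0019828 for dj, FBgn0037463 for djl, FBgn0011596 for fzo, FBgn0029870 for Marf, FBgn0086907 for Cyt-c-d, FBgn0029891 for Pink1 and FBgn0041100 for park, and Cyt-c-p is listed as FBgn0000409 in testes and FBgn0284248 in larvae. The annotated proteins have 717 residues for fzo against 809 or 813 for Marf, and 104 for Cyt-c-d against 107 for Cyt-c-p.

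Because the study was concerned with the splicing of short introns, the splice sites of the 5 member introns named in its supplementary intron tables are shown. Those lists hold introns affected in tgs1hypo testes and also randomly selected control introns that were not affected. A place among the 5 therefore does not mark an intron as affected. A donor line gives 3 bases of exon and the start of the intron, and an acceptor line the last 20 bases of the intron and the start of the next exon. Capitals mark the first and the last pair of bases of the intron.
dj, 3R:7059492-7059549, plus strand, donor: aagGTatgc
dj, 3R:7059492-7059549, plus strand, acceptor: ctgttaatactacttcacAAccg
djl, 3R:7060985-7061039, plus strand, donor: aagGTaaga
djl, 3R:7060985-7061039, plus strand, acceptor: cttatacttgttcgtactAGaaa
Pink1, X:6684462-6684517, plus strand, donor: tagGTaaaa
Pink1, X:6684462-6684517, plus strand, acceptor: gtttaaggtgcttcattcAGttg
park, 3L:21194957-21195033, minus strand, donor: atgGTgagt
park, 3L:21194957-21195033, minus strand, acceptor: tcttcttctcttcctaccAGgcg
park, 3L:21196713-21196775, minus strand, donor: cgcGTaagt
park, 3L:21196713-21196775, minus strand, acceptor: ctaaaattaaacccgatcAGctg
All 5 introns begin with GT, and 4 of 5 end with AG. The dj intron of 58 bases ends with AA in its annotated form, and a second annotated form of dj uses the same donor with an intron of 78 bases. The values below are levels per gene and do not tell spliced from unspliced RNA.

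Levels are given in FPKM, fragments per kilobase of transcript scaled to the mapped fragments of the library, so levels of different genes can be compared. Changes are differences of log2(FPKM + 1), mutant minus wild type, tested with limma across the genes whose mean over the tissue's 4 libraries reached 1 FPKM. Adding 1 makes the change of a low gene look smaller than it is. A call needed both a change of 1 or more on this scale, up or down, and a p under 0.05 after Benjamini-Hochberg adjustment over those genes. The row of moi, which shares its locus with tgs1, stood at 10.1 and 11.4 FPKM in the wild-type testes and at 3.81 and 2.71 FPKM in the tgs1hypo testes (log2 change -1.47, SE 0.16, limma adjusted p = 0.00039). By the genotypes given above, both testis groups carry the hypomorphic alleles and a driven cDNA of tgs1 or moi. The part of these cDNAs in the moi row was not tested, so the row does not show the effect of the alleles. In larvae the wild-type values were 4.64 and 7.42 FPKM and the mutant values 6.41 and 6.85 FPKM, and a frameshift need not change this level. The tables give no read counts, so depth is unknown. Across tested genes the testis libraries correlated at 0.994 within wild type, 0.990 within the mutant and 0.942 to 0.950 between them, whereas the larval libraries correlated at 0.929 and 0.953 within a genotype and 0.931 to 0.953 between genotypes. The larval libraries thus did not separate by genotype, and their fat body markers summed to 4.88 and 52.1 FPKM in wild type against 0.276 and 418 FPKM in the mutant.

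In wild-type testes dj, djl and the testis form of cytochrome c were the highest members. The level of dj was 933 and 1121 FPKM in the wild-type libraries, which ranks its mean 84 of 15612 genes, followed by Cyt-c-d (774 and 849.8 FPKM, rank 104) and djl (362 and 411 FPKM, rank 323). Pink1 at 90.0 and 85.9 FPKM and fzo at 84.9 and 90.0 FPKM could not be ordered, since their values overlapped. Cyt-c-p (47.0 and 46.2 FPKM) and park (44.1 and 46.6 FPKM) overlapped likewise, and Marf was lowest at 43.5 and 40.7 FPKM. In tgs1hypo testes the order from dj through Cyt-c-d to djl was kept, fzo followed djl and stood apart from Pink1, and park was the lowest of the 8.

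**Figure D1:**
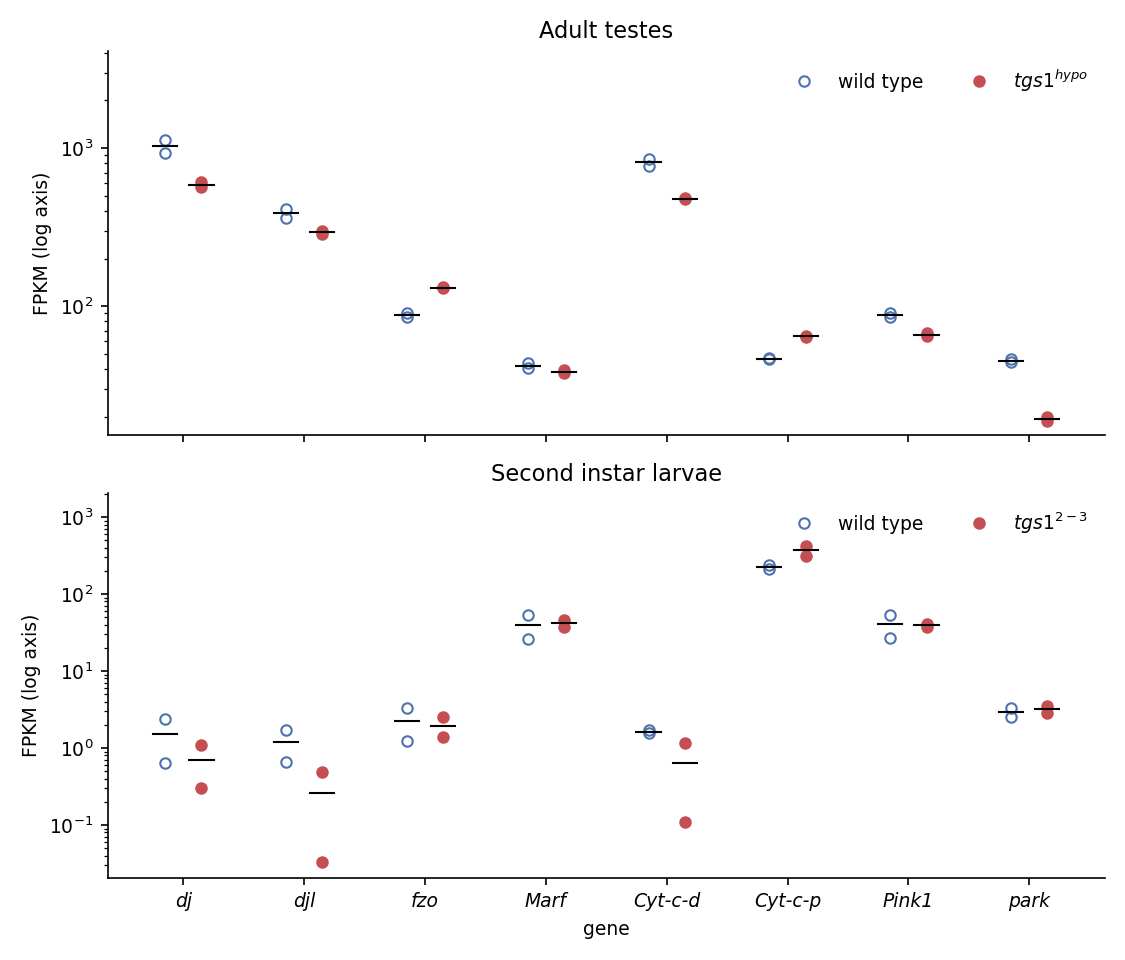
FPKM on a log axis for each gene in each library, testes above and second instar larvae below; open circles are wild type, filled circles the mutant and bars the mean of 2 libraries. In testes the groups of every member lie apart, with fzo and Cyt-c-p higher in the mutant; in larvae dj, djl, fzo, Cyt-c-d and park lie at or under 3.53 FPKM.

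In tgs1hypo testes park fell past the limit of the call, dj, djl, Cyt-c-d and Pink1 fell by less, fzo and Cyt-c-p rose, and Marf did not pass the test. Thus 1 of 8 members was called, where 10.6% of all 11343 genes tested were called (3.54% higher and 7.11% lower). Those calls were 402 higher and 806 lower, and with median-of-ratios scaling 280 higher and 975 lower. By the adjusted p alone, 7 of 8 members changed, 2 higher and 5 lower, against a background of 57.7% (34.3% higher and 23.4% lower). The groups did not overlap for 8 of 8 members, 2 above and 6 below wild type, where 80.4% of all tested genes did not overlap (47.7% above and 32.6% below). The median log2 change over all tested genes was 0.11, so each change relative to that median is 0.11 lower than stated. As in any bulk tissue, fewer cells of a type and less RNA per cell cannot be told apart.

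The don juan genes, which lie side by side, both fell. dj went from 933 and 1121 FPKM in wild type to 607 and 568 FPKM in tgs1hypo (1027 ± 133 against 587 ± 27.3 FPKM, SD, n = 2 each), and the lower wild-type library was still above both mutant libraries. The log2 change was -0.80 (SE 0.10, limma adjusted p = 0.00057). djl went from 362 and 411 FPKM to 300.3 and 287 FPKM, again without overlap, with a fall of 0.39 on the log2 scale (SE 0.08, limma adjusted p = 0.0044). dj supplied 72.6 ± 0.784% of the summed FPKM of the pair in wild type and 66.7 ± 0.319% in tgs1hypo (SD, n = 2 each). The log2 ratio of dj to djl, chosen after its values were seen, was 1.37 and 1.45 in wild type and 1.01 and 0.98 in tgs1hypo, without overlap (exact two-sided permutation p = 0.333, the smallest that 2 libraries against 2 can give).

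Of the mitofusin paralogues the spermatid form rose and the somatic form did not pass the test. fzo, the spermatid mitofusin, went from 84.9 and 90.0 FPKM to 131.6 and 130.2 FPKM in tgs1hypo, both mutant libraries above both wild-type libraries (log2 change 0.58, SE 0.06, limma adjusted p = 0.00032). Marf, the mitofusin of other tissues and a known substrate of parkin, went from 43.5 and 40.7 FPKM to 37.6 and 39.4 FPKM. Its groups lay apart by little, and its log2 change of -0.13 did not pass (95% interval -0.30 to 0.047, limma adjusted p = 0.18), although it did with median-of-ratios scaling (-0.23, limma adjusted p = 0.030). fzo supplied 66.1% and 68.8% of the summed mitofusin FPKM in the wild-type libraries and 77.8% and 76.8% in tgs1hypo, while the sum itself went from 129.5 ± 1.70 to 169.4 ± 0.331 FPKM (SD, n = 2 each). The log2 ratio of fzo to Marf was 0.95 and 1.12 in wild type and 1.78 and 1.70 in tgs1hypo, a difference of 0.70 (exact two-sided permutation p = 0.333, the smallest possible). The gene cnc, which surrounds fzo on the same strand with 0 shared exon bases, went from 36.5 and 35.2 FPKM to 57.0 and 59.5 FPKM (log2 change 0.68, limma adjusted p = 0.00025), and its part in the fzo value was not tested.

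The cytochrome c paralogues moved in opposite directions. Cyt-c-d, the testis form, went from 774 and 849.8 FPKM in wild type to 477 and 482 FPKM in tgs1hypo (812 ± 53.6 against 479 ± 3.37 FPKM, SD, n = 2 each), a fall of 0.76 on the log2 scale (SE 0.07, limma adjusted p = 0.00018). Cyt-c-p, the form that serves respiration in the soma, went from 47.0 and 46.2 FPKM to 64.9 and 64.2 FPKM, a rise of 0.46 (SE 0.06, limma adjusted p = 0.00091). Neither gene's groups overlapped. Cyt-c-d supplied 94.6 ± 0.401% of the summed cytochrome c FPKM in wild type and 88.1 ± 0.158% in tgs1hypo (SD, n = 2 each), and that sum went from 858 ± 53.0 to 544 ± 2.85 FPKM. The log2 ratio of Cyt-c-d to Cyt-c-p was 4.01 and 4.17 in wild type and 2.86 and 2.89 in tgs1hypo, a difference of -1.22 (exact two-sided permutation p = 0.333, the smallest possible). Counting by strand is not stated, and Cyt-c-d shares 305 of 837 exon bases with CG31808 on the other strand, whose wild-type values were 4.64 and 6.33 FPKM and whose tgs1hypo values were 4.15 and 4.32 FPKM in testes.

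**Figure D2:**
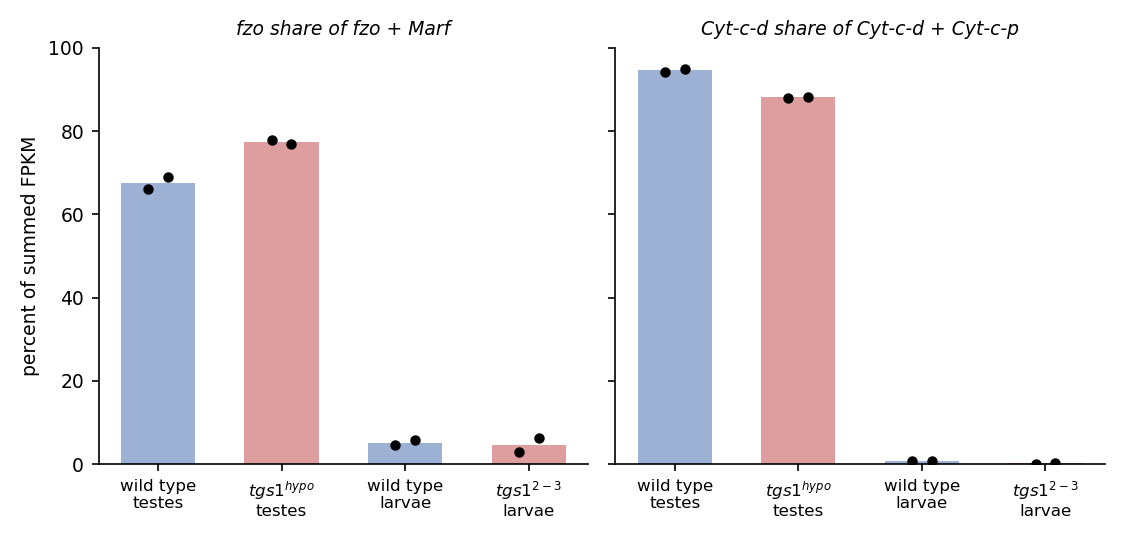
Share of the summed FPKM of each pair that comes from the testis paralogue, in percent; bars are means of 2 libraries and points are libraries. fzo went from 67.5% to 77.3% of the mitofusin sum in testes and Cyt-c-d from 94.6% to 88.1% of the cytochrome c sum, and in larvae both testis paralogues are at or under 6.33% in every library.

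Pink1 and park, which act in one pathway of mitochondrial quality control, both fell, and park alone passed the limit of the call. Pink1, the kinase, went from 90.0 and 85.9 FPKM to 67.6 and 64.7 FPKM (log2 change -0.41, SE 0.06, limma adjusted p = 0.0017). park, the ubiquitin ligase that Pink1 activates, went from 44.1 and 46.6 FPKM to 18.7 and 19.9 FPKM, so that its mutant mean was 0.427 of wild type (log2 change -1.19, SE 0.08, limma adjusted p = 5.92e-05). The groups of both genes lay well apart. The Pink1 level was 1.94 ± 0.141 times that of park in wild type and 3.43 ± 0.257 times in tgs1hypo (SD, n = 2 each), a ratio chosen after its values were seen (exact two-sided permutation p = 0.333, the smallest possible). park shares 1076 of 1687 exon bases with asRNA:CR45951 on the other strand, which went from 0.0547 and 0.0582 FPKM to 0.41 and 0.445 FPKM in testes, far under park in each of the 4 testis libraries. Pink1 shares 340 exon bases with CG44303 on the other strand, which went from 11.3 and 8.43 FPKM to 12.6 and 15.3 FPKM.

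**Figure D3:**
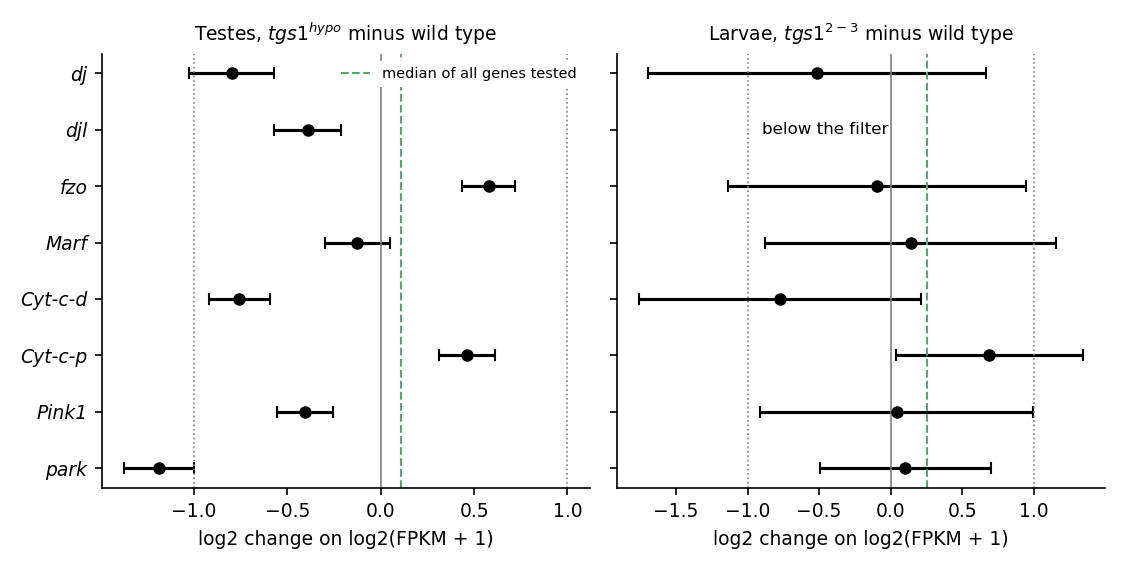
Log2 change on the log2(FPKM + 1) scale with its 95% interval, mutant minus wild type, for each gene in testes (left) and larvae (right); the dashed line is the median of all tested genes (0.11 and 0.25) and dotted lines mark the limit of 1. In testes only the estimate for park passes the limit. In larvae the interval of Cyt-c-p lies above 0 with FPKM as given, and those of the other members tested include 0.

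Other genes of the same processes were taken from lists chosen by function. The shares to set beside each list are those of all genes tested in testes. Of these, 10.6% were called (3.54% higher and 7.11% lower) and 57.7% passed by the adjusted p alone. Of 6 fusion and fission partners tested in testes, 0 were called and 1 rose by the adjusted p alone, and the list's median change of 0.08 was near that of all genes. The riser was Miga, mitoguardin, which promotes fusion (19.7 and 16.9 FPKM to 25.0 and 25.6 FPKM, log2 change 0.45). The highest gene of the list, Mul1, another ligase that acts on mitofusin, went from 129.8 and 137.5 FPKM to 128.6 and 117.1 FPKM (limma adjusted p = 0.18). With quantile normalization Mul1 (-0.19, limma adjusted p = 0.033) and the fission gene Fis1 (-0.19, limma adjusted p = 0.026) passed as lower. Drp1, which drives fission, and the inner membrane fusion gene Opa1 did not pass either.

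Of 5 tested genes of mitochondrial shaping and transport in spermatids, 0 were called, 3 rose and 1 fell by the adjusted p alone (median change 0.33). milt, the adaptor that links mitochondria to kinesin, rose most, from 67.3 and 68.5 FPKM to 108.2 and 110.8 FPKM (log2 change 0.68). knon, a testis paralogue of an ATP synthase subunit that shapes the nebenkern, went from 166.7 and 174.6 FPKM to 222.9 and 206.8 FPKM (log2 change 0.33, and 0.22 without passing under median-of-ratios scaling). nmd also rose (0.41), and mfrn, mitoferrin, fell by 0.17. Bb8 was not analysed here in testes.

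Of 15 tested genes of the Pink1 and park pathway and of mitophagy, 1 was called lower, and by the adjusted p alone 4 were higher and 4 lower (median change 0.09). The called gene was rho-7, the rhomboid protease of the inner mitochondrial membrane, which went from 106.2 and 114.0 FPKM to 50.6 and 50.1 FPKM without overlap (log2 change -1.11, SE 0.06, limma adjusted p = 3.69e-05). The other 3 that fell were clu (-0.51), ref(2)P, the autophagy adaptor (-0.35), and Usp30, a mitochondrial deubiquitinase (-0.27). The risers were Atg7 (0.67), DJ-1alpha (0.46), DJ-1beta (0.38) and Atg8b (0.22). Atg8b, a paralogue of the autophagy gene Atg8a, was the highest of the list and went from 465.7 and 536.6 FPKM to 585.4 and 581.9 FPKM, a rise that did not pass with median-of-ratios scaling (0.11).

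**Figure D4:**
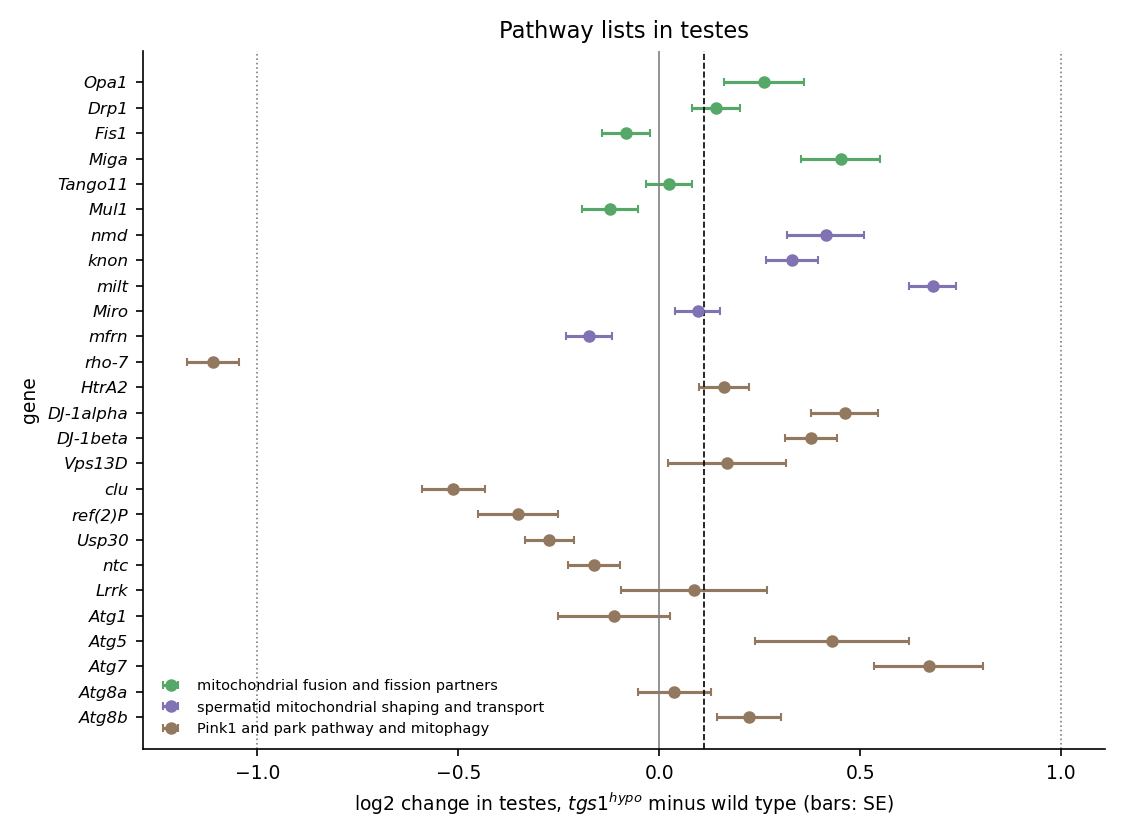
Log2 change in testes with its SE for 26 tested genes of 3 lists, coloured by list; the dashed line is the median of all tested genes (0.11) and dotted lines mark the limit of 1. rho-7 alone passes the limit, at -1.11, and milt (0.68) and Atg7 (0.67) are the largest rises.

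Of 7 tested partners of cytochrome c in respiration, 1 was called higher, and by the adjusted p alone 4 rose and 0 fell (median change 0.22). The called gene was Scox, a copper chaperone for the assembly of cytochrome c oxidase, from 38.2 and 39.0 FPKM to 78.4 and 80.7 FPKM (log2 change 1.02, SE 0.06, limma adjusted p = 4.58e-05). This call rests on the limit of 1, since median-of-ratios scaling gave 0.92 and quantile normalization 0.94. Cchl, the enzyme that attaches haem to cytochrome c, was the highest of the list and went from 151 and 161 FPKM to 144.1 and 141.8 FPKM (limma adjusted p = 0.12). It did not pass here but did, as a fall, with median-of-ratios scaling (-0.23) and quantile normalization (-0.17). cype (0.67), a cytochrome c oxidase subunit, Cyt-c1L (0.60) and RFeSP (0.17) rose, RFeSP under neither of those scalings.

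Of 9 tested caspases and regulators of spermatid individualization, 1 was called lower, and by the adjusted p alone 3 rose and 2 fell (median change 0.11). The called gene was Diap1, the main inhibitor of caspases, from 92.0 and 81.7 FPKM to 44.0 and 41.6 FPKM (log2 change -1.003, SE 0.08, limma adjusted p = 0.00011). It stood just past the limit, and the change was -0.92 without wild-type replicate 1 and -0.96 without tgs1hypo replicate 2. The caspase genes Dronc (0.41) and Drice (0.43) rose, as did soti (0.33), an inhibitor of the spermatid ubiquitin ligase, from 372 and 402 FPKM to 506.3 and 467 FPKM, though not with median-of-ratios scaling (0.22). Bruce fell by 0.22, and after rescaling to equal sums the change of -0.23 no longer passed (limma adjusted p = 0.077). klhl10 was not analysed here in testes.

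Among 9 tested genes of mitochondrial import and pores, 0 were called, 5 rose and 1 fell by the adjusted p alone (median change 0.30). The gene that fell, Porin2, a testis paralogue of the outer membrane channel, was the highest, from 641 and 690.4 FPKM to 545 and 534 FPKM (log2 change -0.30, limma adjusted p = 0.0065). The testis receptor tomboy20 rose by 0.50, from 439.7 and 506.5 FPKM to 665 and 673 FPKM. With median-of-ratios scaling the list stood at 4 higher and 2 lower, that of the Pink1 and park pathway at 3 and 5, that of the cytochrome c partners at 3 and 1, and that of the caspases at 2 and 3.

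Other testis genes with a somatic partner were compared in the same way as the mitofusins and cytochromes c. Of 10 pairs, with the mitofusins and cytochromes c included, the ratio of testis to somatic gene lay apart between the groups for 8, higher in tgs1hypo for 4 and lower for 4. The share of single genes that lay apart in testes was 80.4%, and no such share was computed for ratios. The ratio was higher in tgs1hypo for fzo to Marf (0.70), tomboy20 to Tom20 (0.60), Cyt-c1L to Cyt-c1 (0.38) and ATPsynbetaL to ATPsynbeta (0.28), all on the log2 scale. It was lower for Cyt-c-d to Cyt-c-p (-1.22), Porin2 to porin (-0.44), knon to ATPsynD (-0.23) and tomboy40 to Tom40 (-0.22). The groups overlapped for DJ-1alpha to DJ-1beta (0.08) and Atg8b to Atg8a (0.19). Each of the 8 had an exact two-sided permutation p of 0.333, the smallest that 2 against 2 allows, so none could pass a threshold of 0.05.

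**Figure D5:**
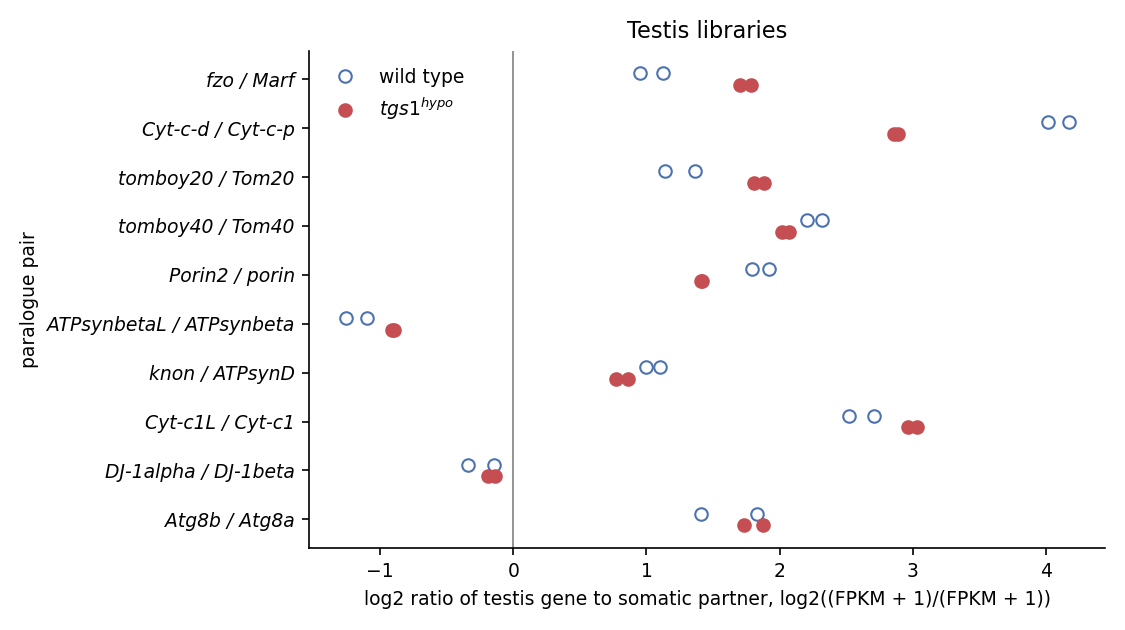
Log2 ratio of a testis gene to its somatic partner, log2((FPKM + 1)/(FPKM + 1)), in each testis library for 10 pairs; open circles are wild type and filled circles tgs1hypo. The Cyt-c-d to Cyt-c-p ratio has the largest difference (-1.22) and the fzo to Marf ratio the largest in the other direction (0.70).

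Markers of other tissues and of germ cell stages were counted by the adjusted p alone, by which 57.7% of all tested genes passed. Late transcribed spermatid markers, the comet and cup genes, summed to 2953 and 3231 FPKM in wild type against 2725 and 2679 FPKM in tgs1hypo, with 5 of 13 higher and 4 of 13 lower (2 higher and 6 lower with median-of-ratios scaling). In that sum w-cup alone went from 1003 and 1111 FPKM to 487 and 517 FPKM. The median log2 change of these markers was 0.06. Spermatocyte markers, a list that includes fzo, summed to 691 and 712 FPKM against 921 and 856 FPKM, with 4 of 7 higher and 3 of 7 lower. In that sum Taf12L alone went from 86.0 and 73.4 FPKM to 301 and 260 FPKM. The 3 lower genes were bol (395 and 424 FPKM to 302 and 289 FPKM), can and sa, so the sum does not give the direction of each gene. Of 6 spermatogonial markers 2 were higher, and of 5 tested somatic cyst and hub markers 1 was higher and 2 lower. Body wall muscle markers were lower for 6 of 6 genes, summing to 296 and 274 FPKM in wild type against 141 and 166 FPKM in tgs1hypo, and accessory gland markers for 5 of 6 genes, summing to 2415 and 2200 FPKM against 1426 and 1523 FPKM. Fat body markers summed to at most 2.41 FPKM in any testis library, and 0 of 1 tested passed. No list had a marker at 0 in every library. The part of these tissues and stages in the member values was not tested.

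In second instar larvae 0 of the 7 members tested were called, and 0.0% of the 9545 genes tested were called. By group overlap, 3 of 8 members lay apart, 1 above (Cyt-c-p) and 2 below wild type (Cyt-c-d and djl). Among the tested genes 47.6% lay apart (43.1% above and 4.46% below). djl was not tested, so the count of members and this share are not over like sets. At an unadjusted limma p under 0.05 there were 742 genes, 668 of them higher in the mutant, and the median log2 change of all tested genes was 0.25. With median-of-ratios scaling these were 412 genes, 192 higher and 220 lower, and with quantile normalization 414, 203 higher and 211 lower. The excess of higher genes thus depended on scaling, and the shares that lay apart are for the FPKM as given. The filter on low values passed 7 of 8 members and left out djl; dj and Cyt-c-d passed it through their wild-type values, since their mutant means were 0.693 and 0.632 FPKM. Of the 6 lists of partner genes, 0 genes were called in larvae, and rho-7 stood at 10.2 and 13.2 FPKM in wild type against 11.6 and 14.7 FPKM in the mutant.

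Cyt-c-p was the highest and went from 212 and 239 FPKM to 422 and 314 FPKM, both mutant libraries above both wild-type libraries. Its log2 change of 0.69 (SE 0.25, 95% interval 0.037 to 1.34) had a limma adjusted p of 0.57 and did not pass. The Cyt-c-p change was 0.41 (SE 0.27) with median-of-ratios scaling and 0.53 (SE 0.22) with quantile normalization. Marf went from 26.1 and 54.0 FPKM to 46.1 and 37.4 FPKM, and Pink1 from 26.9 and 53.5 FPKM to 37.3 and 41.2 FPKM. For both genes the mutant libraries lay between the wild-type libraries, with changes of 0.14 and 0.04 whose 95% intervals ran from -0.88 to 1.16 and from -0.91 to 0.996. Under median-of-ratios scaling the Marf, Pink1 and park estimates turned to -0.14, -0.23 and -0.11. park was low, at 2.50 and 3.34 FPKM in wild-type larvae and at 2.86 and 3.53 FPKM in mutant larvae (log2 change 0.10, 95% interval -0.50 to 0.70). In larvae its antisense neighbour asRNA:CR45951 stood nearer to it, at 1.52 and 1.82 FPKM in wild type against 1.90 and 1.94 FPKM in the mutant, and with strand use unknown its part in the larval park values was not tested. Marf shares 347 of 3617 exon bases with lncRNA:CR44816 on the other strand. That RNA stood at 8.56 and 7.57 FPKM in wild-type larvae and at 4.71 and 7.05 FPKM in mutant larvae. Its part in the larval Marf values was not tested.

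The testis members were near the bottom of the scale. Cyt-c-d went from 1.58 and 1.70 FPKM to 0.109 and 1.16 FPKM (log2 change -0.77, limma adjusted p = 0.57). The change was -0.29 without tgs1 2-3 replicate 1, -1.25 without replicate 2 and -1.76 with a pseudocount of 0.1. CG31808, which shares exon bases with Cyt-c-d on the other strand, was far higher in larvae, at 34.8 and 34.9 FPKM in wild type against 35.6 and 27.2 FPKM in the mutant, and its part in the larval Cyt-c-d values was not tested. dj went from 2.37 and 0.644 FPKM to 0.299 and 1.09 FPKM, with overlap (log2 change -0.52, and -1.03 to -0.17 as larval libraries were left out, where it still passed the filter), and djl from 1.73 and 0.662 FPKM to 0.033 and 0.493 FPKM, without overlap and not tested. fzo went from 1.25 and 3.29 FPKM to 1.39 and 2.53 FPKM (log2 change -0.10, 95% interval -1.14 to 0.94). The gene cnc around fzo was far higher in larvae, at 21.4 and 23.6 FPKM in wild type. In the mutant cnc stood at 19.2 and 20.3 FPKM. It shares 0 exon bases with fzo, and its part in the larval fzo values was not tested. For dj, djl and Cyt-c-d the lowest library was tgs1 2-3 replicate 1. In the same library the late spermatid markers summed to 1.22 FPKM, against 3.01 to 5.36 FPKM in the other 3 larval libraries, and the part of germline content in these values was not tested.

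The paralogue shares in larvae were the reverse of those in testes. fzo supplied 5.15 ± 0.830% of the mitofusin sum in wild-type larvae and 4.63 ± 2.41% in the mutant, and Cyt-c-d 0.721 ± 0.0233% and 0.196 ± 0.241% of the cytochrome c sum (SD, n = 2 each). The log2 ratio of fzo to Marf was -3.59 and -3.68 in wild type and -4.30 and -3.44 in the mutant, with overlap (exact two-sided permutation p = 1). That of Cyt-c-d to Cyt-c-p was -6.37 and -6.48 against -8.58 and -7.19, without overlap (difference -1.46, exact two-sided permutation p = 0.333, the smallest possible). This difference was -0.77 without tgs1 2-3 replicate 1, -2.15 without replicate 2 and -2.45 with a pseudocount of 0.1.

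Between wild-type tissues the members covered a wide range. The tables were normalized apart and the wild types differ in genotype, so these ratios have no test. The mean FPKM in wild-type testes was 681 times that in wild-type larvae for dj, 496 times for Cyt-c-d and 324 times for djl. It was 38.5 times for fzo and 15.5 times for park. The larval values of Cyt-c-d, park and Marf are subject to overlapping genes on the other strand, and those of fzo to cnc around it. Pink1 was 2.19 times as high in testes and Marf 1.05 times, whereas Cyt-c-p was 4.84 times as high in larvae. The testis excess of park over larvae was thus larger than that of Pink1.

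For dj, fzo and Cyt-c-d the genes with the most similar pattern were found by Euclidean distance of log2(FPKM + 1) over the 8 libraries, among 14303 genes in both tables. The libraries of a tissue come from 1 table with the same processing, and the distance is a description. Closest to dj were CG1288 (distance 0.42), CG12853 (0.48) and CG17470 (0.83). CG1288 stood at 1012 and 1120 FPKM in wild-type testes and 641 and 644 FPKM in tgs1hypo testes. Closest to Cyt-c-d were CG32388 (0.71), CG1324 (0.79) and CG32192 (0.80), and dj was 11 in its order, while Cyt-c-d was 12 in that of dj. Closest to fzo were Rpn13R (0.79), CG13449 (0.82) and Rpt4R (0.83), of which Rpn13R and Rpt4R are testis paralogues of proteasome subunits. Rpn13R stood at 71.5 and 68.8 FPKM in wild-type testes and at 116.2 and 112.3 FPKM in tgs1hypo testes.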

How the data were processed

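The deposited tables give FPKM per gene and library, which the authors made from poly(A) RNA libraries (NEBNext Ultra kit, Illumina sequencing) with reads mapped by HISAT2 to FlyBase release 6.16. featureCounts and DESeq2 are named for expression levels, but the tool that gave the FPKM and any use of strand are not given in the sources used here. FPKM is scaled within each library, so a change in a few abundant RNAs moves all other values. The libraries summed to 792501 to 825832 FPKM in testes and 601489 to 646994 FPKM in larvae; low values were not whole multiples from which counts could be taken, so read depth and counting error are unknown. The testis table lists fzo, Marf, Cyt-c-d, Pink1 and park at a locus merged with overlapping genes, each with an FPKM of its own.

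Each tissue was fitted apart with limma 3.58.1 in R 4.3.3 (lmFit, eBayes with trend) on log2(FPKM + 1), for genes that averaged 1 FPKM or more over 4 libraries. The tables hold no counts, so no count test was run. Ratios within a library were compared by an exact permutation test (scipy 1.17.1). The scripts were tested on simulated data. Named genes were the 8 members, the genes called and the highest gene in wild-type testes of each list, the pairs, and the 3 genes nearest to dj, fzo and Cyt-c-d; other list genes that passed by the adjusted p are named besides, chosen after their values were seen, as were Drp1, Opa1, Fis1, cnc and overlapping genes. The members and lists were chosen with earlier results of these data known. Of 112 symbols, 109 matched in testes and 102 in larvae. Replicate numbers come from the labels, which do not say what a shared number means. Exons are from Ensembl 115; splice sites are from the study's supplementary tables.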

Additional observations from a re-analysis of the deposited data

Results flagged for a closer look

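The dj to djl ratio moved in opposite directions in the 2 tissues: it changed by -0.41 on the log2 scale in testes, where both tgs1hypo libraries were below both wild-type libraries, and by 0.26 in larvae, where both tgs1 2-3 libraries were above both wild-type libraries. The difference between tissues was not tested, the mutations differ, and in larvae both genes stood at or under 2.37 FPKM. There djl was below the filter, at 0.033 and 0.493 FPKM in the tgs1 2-3 libraries, and the groups of dj overlapped. In each tissue the exact two-sided permutation p was 0.333, the smallest possible.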

How the results depend on the processing

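In testes park was the 1 member called under every alternative that kept the limit on the change, leaving out each library in turn included; without that limit 7 members and 6548 genes passed. Genes called ranged from 1137 to 1329 as libraries were left out. Median-of-ratios scaling gave 280 genes higher and 975 lower, 22.3% higher against 33.3%, and under it Marf passed the adjusted p (-0.23, limma adjusted p = 0.030). No member reversed in testes, and the other 7 kept their side of the adjusted p under every alternative. In larvae 0 members were called under any alternative. Genes called there ranged from 0 to 7 as libraries were left out, 7 being the count without tgs1 2-3 replicate 1, and a block with crossed replicate numbers, added after seeing the data, gave 1. As larval libraries were left out, the change ranged from -0.56 to 0.37 for fzo, -0.37 to 0.65 for Marf, -0.44 to 0.52 for Pink1, -0.052 to 0.26 for park, -1.25 to -0.29 for Cyt-c-d, -1.03 to -0.17 for dj and 0.48 to 0.90 for Cyt-c-p. Without wild-type replicate 1 dj, and without either wild-type library Cyt-c-d, was below the filter and had no value. The fzo to Marf ratio ranged from -0.67 to 0.19 and that of Cyt-c-d to Cyt-c-p from -2.15 to -0.77. Under median-of-ratios scaling, which moved the median change of all larval genes from 0.25 to 0.013, larval Marf, Pink1 and park turned to -0.14, -0.23 and -0.11. Quantile normalization turned them to -0.089, -0.19 and -0.12. The cause was not tested. Deviations of same-numbered libraries correlated at 0.13 in testes and -0.17 in larvae; with the replicate number as a block, 1 member and 1215 genes were called in testes and 0 and 0 in larvae, and this pairing changed no member's call. Having 2 libraries a group and unknown depth limits every value.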
